A study of Homo sapiens with 10 samples.

Results

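The comparison described here set cells expressing PSPC1 with the tyrosine substitution Y523F (PSPC1-Y523F, named YF mutation in the labels) against cells expressing wild-type PSPC1, in both cases without added PTK6. It rests on 2 of the 10 RNA-Seq libraries of the series, chosen by their labels and not by any measured value, and each condition was sequenced in 1 library. The host was SK-Hep1, labelled as a human hepatocellular carcinoma cell line and grown in Dulbecco's medium with fetal bovine serum. Further SK-Hep1 libraries came from mock control cells, cells with PSPC1 and PTK6, and cells with PSPC1-Y523F and PTK6. Libraries of Mahlavu, another hepatocellular carcinoma line, came from mock control cells and cells with the C-terminal PSPC1 fragment PSPC1-CT131. A further Mahlavu library came from cells with Mut-NLS, this fragment with its nuclear localization sequence disrupted. The Mahlavu libraries served only in the normalization and in comparisons over all 8 SK-Hep1 and Mahlavu libraries. PSPC1 was carried on an HA-tag plasmid, and whether the sequenced cells were 1 clone, a selected pool or transient transfectants is not given in the sources used here.

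PSPC1 (paraspeckle component 1) belongs to the DBHS family with NONO and SFPQ. These RNA- and DNA-binding proteins gather in paraspeckles, nuclear bodies built on the long noncoding RNA NEAT1, and take part in transcription and RNA processing. PTK6 is an intracellular tyrosine kinase, and replacing a tyrosine by phenylalanine removes the hydroxyl group to which a kinase can add phosphate. The comparison without added PTK6 therefore addresses what the substitution changed when only the cells' own PTK6 was present. The tyrosine is the last residue of the protein, which the transcript ENST00000338910 encodes in the codon before the stop. The end of its coding sequence is shown to place the substitution, on the minus strand of exon 9 at chr13:19703178-19703237 (GRCh38, GENCODE 29), with the tyrosine codon in capitals at chr13:19703178-19703180.

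PSPC1 coding end: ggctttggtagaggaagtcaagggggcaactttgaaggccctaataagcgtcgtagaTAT

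The PSPC1 transcript itself differed between both libraries, which bears on every comparison below. PSPC1 (ENSG00000121390, chr13:19674752-19783019) had 0 reads in mock, 209 in PSPC1, 71 in PSPC1-Y523F, 930 in PSPC1/PTK6 and 2539 in PSPC1-Y523F/PTK6. In FPKM, which divides reads by gene length and library depth, its level was 7.01 in PSPC1 and 2.28 in PSPC1-Y523F, and with 0 reads in mock a level of up to 0.0938 FPKM is allowed (3 reads). The mutant transcript was thus present at 0.326 times the wild-type level, with an exact (Clopper-Pearson) 95% counting interval of 0.245 to 0.428. The counts do not separate wild-type from mutant reads, so the mutation could not be checked from them. PTK6 (ENSG00000101213, chr20:63528001-63537370) was read at 5.69 FPKM in PSPC1 and 4.09 in PSPC1-Y523F, near the 4.79 of mock and below the 16.6 and 10.5 FPKM of the PTK6 libraries. Differences that follow from the substitution and differences that follow from the lower amount of PSPC1 cannot be told apart.

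The 5 SK-Hep1 libraries held 20222367 to 24278662 reads on genes, with 20222367 in PSPC1 and 21087578 in PSPC1-Y523F. The markers did not bear out a hepatocyte identity, since 3 of 25 hepatocyte markers reached a mean of 1 FPKM over both libraries and 15 had no read in either, albumin (ALB), APOA1 and TTR among them. The 3 were SERPINA1 at 22.3 FPKM in PSPC1 and 16.3 in PSPC1-Y523F, CPS1 at 3.61 and 2.98, and ASGR1 at 1.13 and 0.843. Of 21 endothelial markers, 5 reached this level, with ENG and EGFL7 at the highest level. Their summed level was 287 FPKM in PSPC1 and 334 in PSPC1-Y523F, within a range of 274 to 373 over the 5 libraries, with KDR, ERG, CLEC14A, EMCN and LYVE1 at 0 in both. The summed fibroblast and stellate cell markers were at 218 and 112 FPKM, of a range of 112 to 353. Of these 12 markers, 3 reached a mean of 1 FPKM, and COL3A1 alone gave 167 and 79.3 FPKM of both sums. The summed immune cell markers were at 7.04 and 7.77 FPKM. The part of these levels in the results was not tested.

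With 1 library on each side there is no replicate error, no test and no p-value, and every difference below is a difference between these libraries. Folds on the log2 scale compare quantile-normalised FPKM after adding 1, which understates the differences of weakly expressed genes. Read ratios are ratios of reads divided by the reads of each library, with exact 95% intervals that cover counting error only, and differences of at least 2-fold on the log2 scale are counted.

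Of 58302 genes, 12389 reached a mean of 1 FPKM over both libraries. Of these, 233 (1.88%) were at least 2-fold higher in PSPC1-Y523F and 294 (2.37%) at least 2-fold lower, around a median log2 difference of 0.01. The higher genes included 135 protein-coding genes and the lower genes 215. The counting interval of the read ratio lay wholly above 1 for 195 of the higher genes and wholly below 1 for 280 of the lower genes. It lay beyond 2-fold for 124 and 214 genes. Under 4 other scalings of the libraries, 189 of the higher and 272 of the lower genes were at least 2-fold apart in the same direction each time.

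**Figure D1:**
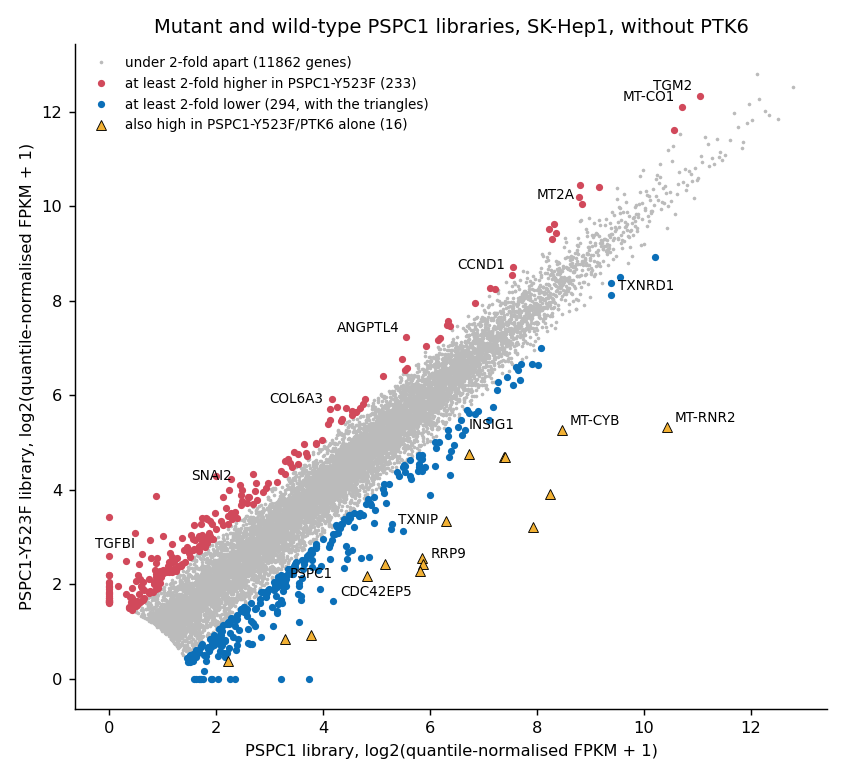
Level of each of the 12389 genes in the PSPC1 library (x axis) and in the PSPC1-Y523F library (y axis), both as log2 of quantile-normalised FPKM + 1. The 233 genes at least 2-fold higher in PSPC1-Y523F are red, the 294 lower genes are blue, and 16 of the lower genes, drawn as triangles, were also high in the PSPC1-Y523F/PTK6 library; MT-RNR2 at the lower right lies farthest from the diagonal.

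The largest falls formed a set that divided the libraries in another way than by the substitution. All 12 of the largest falls among genes with a symbol and at least 50 reads belonged to a group of 17 genes that were at least 2-fold higher in both PSPC1 and PSPC1-Y523F/PTK6 than in each of the other 6 SK-Hep1 and Mahlavu libraries. The rule for this group was written after their values had been seen. It holds 6 genes of the mitochondrial genome and 8 genes whose symbols begin with RRP, named for ribosomal RNA processing, with FTSJ1, METTL25B and SLC52A1. Of these genes, 16 passed the filter on low values. By the rule, they are lower in PSPC1-Y523F than in PSPC1 and higher in PSPC1-Y523F/PTK6 than in PSPC1/PTK6, so these directions are no result about the group.

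Values of 3 members show the size of this division. MT-RNR2, the large ribosomal RNA of mitochondria, had 526 reads in mock, 49924 in PSPC1, 1177 in PSPC1-Y523F, 2077 in PSPC1/PTK6 and 22061 in PSPC1-Y523F/PTK6. RRP9, a protein of the U3 small nucleolar ribonucleoprotein, had 87, 1701, 109, 65 and 2982 reads in the same order. MT-CYB, the cytochrome b of complex III, had 192, 8508, 829, 327 and 9569 reads. In each case the PSPC1 and PSPC1-Y523F/PTK6 libraries were high and the other 3 were low, with or without the substitution and with or without PTK6. The log2 differences in the pair without PTK6 were -5.12 for MT-RNR2, -3.44 for RRP9 and -3.21 for MT-CYB. The whole group took 0.411% of the reads in PSPC1 and 0.0214% in PSPC1-Y523F, and without it 278 lower genes were left. Its cause was not tested.

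The mitochondrial genome was accordingly divided. Its 13 protein genes encode core subunits of the respiratory complexes and of ATP synthase, and they are transcribed as long precursors that are cut into separate RNAs. Of the 13, 6 were at least 2-fold higher in PSPC1-Y523F and 3, MT-CYB, MT-ND5 and MT-ND6, at least 2-fold lower. MT-ND1 of complex I stood at 463 FPKM in PSPC1 and 1567 in PSPC1-Y523F, with 320 in mock, 741 in PSPC1/PTK6 and 497 in PSPC1-Y523F/PTK6. MT-CO1, a catalytic subunit of complex IV, stood at 2084 and 4685 FPKM, with 1195 in mock, 2702 in PSPC1/PTK6 and 1146 in PSPC1-Y523F/PTK6. The highest value of both genes was thus that of PSPC1-Y523F, as for 10 of the 13 genes. Their log2 differences were 1.65 and 1.39, and those of MT-ND2, MT-ATP6 and MT-ATP8 were 1.40, 1.25 and 1.22. The remaining gene past 2-fold was MT-CO2, at 1682 FPKM in PSPC1 and 3447 in PSPC1-Y523F. All 3 mitochondrial RNA genes that were measured, both ribosomal RNAs and MT-TP, were in the divided group. The nuclear genes of the respiratory chain lay on the other side, with 31 of 35 lower and a median log2 difference of -0.23. COX8A, a small subunit of complex IV, was the 1 nuclear gene past 2-fold, at 41.7 FPKM in PSPC1 and 18.9 in PSPC1-Y523F.

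Several of the largest rises rested on few reads. LHB, the beta chain of luteinizing hormone, showed the largest difference at 2.61 on the log2 scale but rested on 3 reads in PSPC1 and 64 in PSPC1-Y523F. Its read ratio was 20.5 with an interval of 6.69 to 102. Reads of LHB could be shared with the nearly identical chorionic gonadotropin genes beside it. ACOT1, an acyl-CoA thioesterase, had 16 and 162 reads, and ATAD3B, a mitochondrial membrane ATPase, had 826 and 3264. Both have close copies, ACOT2 and ATAD3A, so their counts are uncertain. In mock, ACOT1 had 303 reads, closer to PSPC1-Y523F than to PSPC1, and ATAD3B had 1798, between both.

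TGFBI, a matrix protein induced by TGF-beta, had 0.406 FPKM in PSPC1 and 3.99 in PSPC1-Y523F, with 1.93 in mock, 1.66 in PSPC1/PTK6 and 1.33 in PSPC1-Y523F/PTK6. PSPC1-Y523F was the highest and PSPC1 the lowest of the 5 libraries, and the log2 difference was 2.03. ID2, an inhibitor of basic helix-loop-helix transcription factors, was likewise lowest in PSPC1 at 0.659 FPKM and highest in PSPC1-Y523F at 3.71. SPOCD1, a nuclear protein known from germline methylation of transposons, stood at 3.03 and 15.2 FPKM. BMPER, a secreted regulator of bone morphogenetic proteins, stood at 2.67 and 11.2 FPKM. These 4 genes differed by 1.67 to 2.03 on the log2 scale and had their highest value in PSPC1-Y523F. ANGPTL4, a secreted inhibitor of lipoprotein lipase, was at 42.6 FPKM in PSPC1 and 148 in PSPC1-Y523F, but at 194 in mock and at 49.2 and 51.8 in the PTK6 libraries. Its read ratio was 3.48 (3.24 to 3.75), the highest level being that of mock.

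The other large rises were DOK3, an adaptor protein (log2 difference 2.01, 18 and 135 reads), GNG13, a G-protein gamma subunit (1.88, 7 and 68 reads), DAW1, a factor of ciliary dynein assembly (1.75, 71 and 319 reads), and PRR22 (1.68, 30 and 152 reads). For all 4, PSPC1-Y523F gave the highest of the 5 values.

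Outside the divided group, 12 further falls were named after their values had been seen, by the same rule applied to the genes left. CDC42EP5, an effector of the GTPase CDC42, had 73 reads in mock, 176 in PSPC1, 19 in PSPC1-Y523F, 897 in PSPC1/PTK6 and 83 in PSPC1-Y523F/PTK6. HDAC5, a class IIa histone deacetylase, stood at 40.6 FPKM in PSPC1 and 6.12 in PSPC1-Y523F, with 22.9 in mock, 52.2 in PSPC1/PTK6 and 21.5 in PSPC1-Y523F/PTK6. TJP3, a tight-junction scaffold, stood at 9.05 and 0.940 FPKM, with 2.53 in mock. In all 3 genes PSPC1-Y523F was the lowest of the 5 libraries. The log2 differences were -2.55, -2.37 and -2.35. TXNIP, an inhibitor of thioredoxin and of glucose uptake, stood at 34.7 FPKM in PSPC1 and 6.40 in PSPC1-Y523F, with 4.28 in mock. CEBPD, a transcription factor of the acute phase, was at 77.7 and 16.2 FPKM against 16.0 in mock, and at 52.2 in PSPC1/PTK6 and 35.4 in PSPC1-Y523F/PTK6, so that PSPC1-Y523F lay near mock and PSPC1 was the highest of the 5. DBP, a clock-controlled transcription factor, was at 35.4 and 6.90 FPKM against 11.6 in mock. The others were TNNC1, DEPP1, AZIN2, IL34, MAP1LC3C and CDKN1C, with log2 differences of -2.28 to -1.95. IL34 is a ligand of the CSF1 receptor, and CDKN1C is the cyclin-dependent kinase inhibitor p57.

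The place of the mock library was counted among the genes past 2-fold. Among the 233 higher genes, mock lay nearer PSPC1 in 120 and nearer PSPC1-Y523F in 113. Among the 294 lower genes, it lay nearer PSPC1 in 100 and nearer PSPC1-Y523F in 194. PSPC1-Y523F had the highest of the 5 values in 191 of the higher genes and the lowest in 189 of the lower genes. PSPC1 was at the opposite end in 70 and 143 genes. These counts share the PSPC1 and PSPC1-Y523F libraries with the comparison itself and describe where its differences lay. The genes were chosen for a gap between these libraries, which favours places at the ends of the range. The shares over all genes are not given, so the counts do not say which library stood apart.

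Gene lists were read against the background of all genes, of which 1.88% lay past 2-fold upwards and 2.37% downwards, with a median of 0.01. The place of mock and of the highest or lowest library is not given over all genes. Such counts describe a list and are not read as particular to it. The genes of DNA replication and of the entry into S phase were higher nearly throughout. Of 29 members measured, 27 were higher in PSPC1-Y523F and 3 of them at least 2-fold, with a median log2 difference of 0.71. MCM10, which acts in origin firing, had 6.88 FPKM in PSPC1 and 17.4 in PSPC1-Y523F, with 13.7 in mock. CDC6, which loads the replicative helicase, had 19.8 and 46.9 FPKM, with 45.3 in mock. RRM2, a subunit of ribonucleotide reductase, had 42.9 and 93.4 FPKM, with 60.1 in mock. In each of the 3 genes PSPC1-Y523F was the highest library, although for CDC6 mock lay close to it. Over the 29 genes mock lay nearer PSPC1-Y523F in 23. The genes of G2 and mitosis did not share this shift, with 15 of 30 higher, none past 2-fold and a median of 0.00. Their 3 members farthest from 0 were HMMR, CDK1 and CCNB2, at 0.53, 0.42 and -0.41.

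MYC target genes, many of which serve ribosome assembly and nucleotide synthesis, were higher in 34 of 38 members with a median of 0.32. Of these, 2 were at least 2-fold higher. BOP1, a ribosome assembly factor, stood at 338 FPKM in PSPC1 and 687 in PSPC1-Y523F, and RRS1, also a ribosome assembly factor, at 23.4 and 52.3. In mock they stood at 587 and 36.6 FPKM, and mock lay nearer PSPC1-Y523F in 31 of the 38 genes. The 8 RRP genes of the divided group, named for ribosomal RNA processing, are not in this list. They were lower in PSPC1-Y523F, a direction set by the rule of that group. The cytosolic ribosomal proteins went slightly the other way, with 35 of 40 lower, none past 2-fold and a median of -0.24. RPL15 at -0.60, RPL3 at -0.47 and RPL18 at -0.46 lay farthest from 0.

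Cholesterol synthesis was lower in PSPC1-Y523F. The pathway makes sterols from acetyl-CoA, and its genes share control by SREBP2, which the INSIG1 product retains in the endoplasmic reticulum. Of 23 members, 21 were lower and 5 at least 2-fold, with a median of -0.61. INSIG1 stood at 91.5 FPKM in PSPC1 and 32.2 in PSPC1-Y523F, with 45.8 in mock. MSMO1, a sterol methyl oxidase, stood at 45.7 and 15.2 FPKM, with 21.8 in mock. FDFT1, the squalene synthase, stood at 242 and 98.0 FPKM, with 124 in mock. HMGCS1 and FDPS, earlier enzymes of the pathway, were at -1.11 and -1.10 on the log2 scale. In all of these PSPC1-Y523F was the lowest of the 5 libraries. PSPC1-Y523F was the lowest library in 14 of the 23 genes and PSPC1 the highest in 9.

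Inflammatory genes were lower as well. Of 20 chemokines, cytokines and other genes driven by NF-kB, 17 were lower, 3 of them at least 2-fold, and 1 was at least 2-fold higher, with a median of -0.69. CXCL2 and CXCL8, which attract neutrophils, stood at 14.4 and 9.63 FPKM in PSPC1 and at 4.75 and 3.27 in PSPC1-Y523F. In mock they stood at 4.51 and 4.70 FPKM, so CXCL2 was near its mock level in PSPC1-Y523F and CXCL8 below it. IL1A had 60 reads in PSPC1 and 12 in PSPC1-Y523F. C3, the central complement protein, was the exception with 1.87 and 5.70 FPKM. Interferon-stimulated genes were lower in 29 of 33 members with a median of -0.39, but only HERC5 was past 2-fold, at 11.7 FPKM in PSPC1 and 4.77 in PSPC1-Y523F. PSPC1-Y523F was the lowest library in 27 of the 33 genes. The genes of MHC class I and peptide loading were lower in 14 of 20 members, none past 2-fold, with a median of -0.27. HLA-F at -0.89, PSMB9 at -0.88 and CALR at 0.74 lay farthest from 0.

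Stretches upstream of transcription start sites show letters that members of these lists share. The E2F-like letters TTTNNCGC were found on either strand in the promoters (from 250 bases before to 50 after the start) of 15 of 25 replication genes with a sequence. They were found in 10.8% of the promoters of the 9495 measured genes with a sequence, and in 6.90% of all 27305. The kappa-B-like letters GGNNTTTCC were in 12 of 15 promoters of the NF-kB driven genes and in 6.70% of those of measured genes. The letters GAAANNGAA, part of the interferon-stimulated response element, were in 17 of 25 interferon-stimulated promoters and in 6.16% of those of measured genes. Within the replication list the median log2 difference was 0.71 with the letters and 0.78 without. It was -0.76 and -0.91 in the NF-kB list, and -0.39 and -0.33 in the interferon list. In the MYC target list, where the E-box CACGTG was in 16 of 33 promoters against 10.4% of those of measured genes, it was 0.19 with the letters and 0.40 without. The 9 letters TCACNCCAC, part of a sterol response element, were in 1 of 18 promoters of the cholesterol list, that of SREBF2 at -0.87 against a median of -0.52 for the others, and in 1.02% of those of measured genes. The medians with and without a match were not tested against each other. The letters were paired with lists of genes known for such control, so shares above those of measured genes are no result of these data. A match is a description of the letters and not of binding.

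For each of the first 3 letter patterns, 2 promoters from RefSeq (GRCh38.p14) are shown over 120 bases that end at or before the start site, with matches in capitals. They are GINS2 (chr16:85688955-85689074, minus strand) and PCNA (chr20:5126623-5126742, minus strand) for E2F-like letters, CXCL8 (chr4:73740428-73740547, plus strand) and CXCL2 (chr4:74099203-74099322, minus strand) for kappa-B-like letters, and HERC5 (chr4:88456945-88457064, plus strand) and ISG15 (chr1:1013334-1013453, plus strand) for the interferon letters.
GINS2: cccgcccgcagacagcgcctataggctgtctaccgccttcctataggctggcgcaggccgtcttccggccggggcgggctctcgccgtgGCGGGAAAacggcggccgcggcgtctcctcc
PCNA: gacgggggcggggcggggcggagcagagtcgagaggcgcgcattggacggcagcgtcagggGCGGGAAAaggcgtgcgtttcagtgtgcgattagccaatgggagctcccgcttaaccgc
CXCL8: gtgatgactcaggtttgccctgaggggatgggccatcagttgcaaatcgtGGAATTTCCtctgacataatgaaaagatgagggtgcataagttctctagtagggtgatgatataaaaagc
CXCL2: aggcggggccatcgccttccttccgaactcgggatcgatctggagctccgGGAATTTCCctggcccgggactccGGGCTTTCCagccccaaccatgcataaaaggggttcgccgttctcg
HERC5: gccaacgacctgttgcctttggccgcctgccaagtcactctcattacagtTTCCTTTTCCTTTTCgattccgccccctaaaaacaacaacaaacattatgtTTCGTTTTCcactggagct
ISG15: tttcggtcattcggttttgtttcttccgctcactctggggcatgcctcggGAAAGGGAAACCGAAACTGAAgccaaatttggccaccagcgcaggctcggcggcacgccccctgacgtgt

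The genes shown with these sequences were picked after their values had been seen, so their directions are no result about the lists. GINS2, of the replicative helicase complex, stood at 9.75 FPKM in PSPC1 and 17.1 in PSPC1-Y523F, and PCNA, the sliding clamp of DNA polymerases, at 70.5 and 125. ISG15, a ubiquitin-like protein, stood at 140 and 73.5 FPKM, with 187 in mock, 1312 in PSPC1/PTK6 and 238 in PSPC1-Y523F/PTK6.

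Among genes of epithelial-mesenchymal transition (EMT), the transcription factor SNAI2 was the 1 of 7 measured members past 2-fold. SNAI2 stood at 16.3 FPKM in mock, 3.53 in PSPC1, 13.7 in PSPC1-Y523F, 5.85 in PSPC1/PTK6 and 13.0 in PSPC1-Y523F/PTK6. Both libraries with wild-type PSPC1 were low, and mock and both mutant libraries were high. The other 6 factors differed by -0.43 (ZEB2) to 0.10 (TCF3). Of 18 mesenchymal genes, TGFBI was past 2-fold upwards and LOX and COL3A1 downwards, with a median of -0.15. Of 12 epithelial genes, 1 was at least 2-fold lower, with a median of -0.06. This was JUP, the junction protein plakoglobin, at 96.7 FPKM in PSPC1 and 34.5 in PSPC1-Y523F. JUP stood at 40.3 FPKM in mock, 152 in PSPC1/PTK6 and 55.1 in PSPC1-Y523F/PTK6, so PSPC1-Y523F lay near mock.

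Matrix genes moved both ways. Of 26 genes of collagens and matrix cross-linking, 3 lay past 2-fold upwards and 2 downwards, with a median of 0.10. COL6A3, a chain of collagen VI, stood at 14.5 FPKM in PSPC1 and 48.5 in PSPC1-Y523F, and at 4.73 in mock, 0.345 in PSPC1/PTK6 and 1.01 in PSPC1-Y523F/PTK6. COL16A1 stood at 4.58 and 14.1 FPKM. TGM2, a transglutaminase that cross-links matrix proteins, stood at 2639 and 5216 FPKM, with a log2 difference of 1.30 that fell to 0.98 without quantile normalization. COL3A1 stood at 167 and 79.3 FPKM, with 139 in mock, and the cross-linking enzyme LOX at 10.1 and 3.79, with 4.67 in mock. Of 17 matrix proteases and inhibitors, 13 were higher with a median of 0.37, and MMP9, a gelatinase, was past 2-fold at 2.16 and 7.37 FPKM. MMP9 stood at 11.5 FPKM in mock, above both, and at 28.9 in PSPC1/PTK6 and 4.94 in PSPC1-Y523F/PTK6. Of 26 TGF-beta response genes, 16 were higher, TGFBI and ID2 at least 2-fold, with a median of 0.40. Integrins and focal adhesion adaptors held none past 2-fold among 24, and ITGA2 at 0.98, ITGB4 at -0.79 and ITGA3 at 0.77 lay farthest from 0. The endothelial marker MCAM, an adhesion molecule, stood at 2.03 and 7.57 FPKM.

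Of 19 paraspeckle genes measured, PSPC1 itself was the only one past 2-fold, and the median was 0.08. With 1.88% and 2.37% of all genes past 2-fold, few of 19 would be, so the count says nothing particular to these genes. NONO differed by -0.10 and SFPQ by 0.08 on the log2 scale. NEAT1 stood at 10.2 FPKM in PSPC1 and 13.2 in PSPC1-Y523F. Among 20 genes of the PTK6 family and its known substrates, 1 was past 2-fold, with a list median of -0.15. This was the receptor ERBB3, at 23.4 FPKM in PSPC1 and 8.23 in PSPC1-Y523F, with 12.7 in mock. Of 18 Wnt/beta-catenin feedback and target genes, 1 was past 2-fold. This was CCND1, cyclin D1, at 180 FPKM in PSPC1 and 389 in PSPC1-Y523F, with 392 in mock, 166 in PSPC1/PTK6 and 356 in PSPC1-Y523F/PTK6. Both libraries with wild-type PSPC1 were low and the other 3 were high, and the list median was 0.09. Of 13 stemness genes, the receptor KIT was past 2-fold at 1.73 and 4.56 FPKM, with 8.54 in mock.

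The stress and metabolic lists each had 1 or 2 members past 2-fold. The stress factor ATF3, which is also an immediate early gene, stood at 27.1 FPKM in PSPC1 and 7.06 in PSPC1-Y523F, with 19.7 in mock, and was the 1 of 26 genes of the unfolded protein and ATF4 response past 2-fold. ZFP36, which destabilizes cytokine mRNAs, stood at 41.6 and 19.1 FPKM, with 20.05 in mock. With ATF3 it made up the 2 of 14 immediate early genes past 2-fold. Of 23 p53 targets, BBC3 and CCNG1 were at least 2-fold lower at -1.19 and -1.12. BBC3 stood at 86.4 and 35.9 FPKM, with 39.6 in mock, and CCNG1 at 52.4 and 22.7, with 50.15 in mock. TXNRD1, thioredoxin reductase, was the 1 of 17 NRF2 targets past 2-fold, at 692 FPKM in PSPC1 and 283 in PSPC1-Y523F, below the 859 of mock. Of 27 hypoxia and glycolysis genes, ANGPTL4 was higher and the glucose transporter SLC2A3 lower, at 66.5 and 28.2 FPKM, with 29.85 in mock. Both measured metallothioneins were higher. MT2A stood at 475 and 1090 FPKM, with 870 in mock, and the list is uncertain because its genes are near copies. No member was past 2-fold among 23 YAP/TAZ targets, 10 MAGE family and PRAME antigens and 7 histone and other RNAs without poly-A tails. Their medians were 0.02, -0.35 and -0.01. In these lists LATS2 at -0.94, MAGED2 at -0.96 and H2BC4 at 0.49 lay farthest from 0.

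The second pair of libraries that differ in the substitution, PSPC1-Y523F/PTK6 against PSPC1/PTK6, shares no library with the first pair. In it, PSPC1 was higher in the mutant library, with a log2 difference of 1.53. GC content is the share of G and C in a gene's longest transcript. The Spearman rank correlation of the log2 differences with it was 0.07 in the first pair and 0.30 in this second pair. Its part in the results was not tested. Of 12429 genes measured in this pair, 418 (3.36%) lay past 2-fold upwards and 447 (3.6%) downwards. That split depends on the scaling, since FPKM as deposited gave 206 higher and 1030 lower around a median of -0.29. On the main scale 55 genes were at least 2-fold higher in both pairs, which is 23.6% of the higher genes without PTK6 and 13.2% of those with it. The genes lower in both pairs were 65, or 22.1% and 14.5%. Against these stood 11 genes higher without and lower with PTK6, and 28 genes the other way round, 16 of them from the divided group. Of the genes higher without PTK6 and measured in both pairs, 145 of 187 had the same sign with PTK6, and of the lower genes 201 of 281. Over all 11971 genes measured in both pairs, the log2 differences had a Spearman rank correlation of 0.41. The share of equal signs over all genes is not given here, so these counts are not read as particular to the called genes.

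The genes with the largest rises in both pairs were MROH6, SNAI2, NTSR1, INHBB, ACOX2 and KCNN2. INHBB, the beta-B chain of activins and inhibins, had 184 reads in mock, 59 in PSPC1, 232 in PSPC1-Y523F, 25 in PSPC1/PTK6 and 441 in PSPC1-Y523F/PTK6. NTSR1, the neurotensin receptor, had 704, 168, 632, 172 and 437 reads in the same order. In both genes the wild-type libraries were the lowest, and the mutant libraries lay above mock for INHBB and below it for NTSR1. The log2 differences without and with PTK6 were 1.35 and 2.67 for INHBB and 1.52 and 1.42 for NTSR1. The differences were 1.65 and 1.53 for MROH6, 1.34 and 1.32 for ACOX2, a peroxisomal oxidase of bile acid intermediates, and 1.30 and 1.65 for KCNN2, a calcium-activated potassium channel.

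The genes with the largest falls in both pairs were CDC42EP5, TXNIP, IL34, C1RL, ALPG and CLSTN3. TXNIP had 143 reads in mock, 1083 in PSPC1, 208 in PSPC1-Y523F, 2000 in PSPC1/PTK6 and 53 in PSPC1-Y523F/PTK6. ALPG, a placental-type alkaline phosphatase, had 832, 998, 222, 1893 and 42 reads, and its close family members make the count uncertain. In both genes the wild-type libraries were above mock. The log2 differences without and with PTK6 were -2.10 and -4.21 for TXNIP, -1.82 and -3.98 for ALPG, -1.92 and -2.88 for the complement protease-like C1RL, and -1.75 and -2.94 for CLSTN3, a synaptic adhesion protein. CDC42EP5 and IL34 differed by -2.92 and -2.06 with PTK6.

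Some lists were alike in both pairs and some were not. The replication genes had medians of 0.71 without and 0.51 with PTK6, and the NF-kB driven genes of -0.69 and -1.15. The summed FPKM of the NF-kB list was 5993 in PSPC1/PTK6. It was 788 in mock, 884 in PSPC1, 634 in PSPC1-Y523F and 793 in PSPC1-Y523F/PTK6. The fall of this list with PTK6 was thus measured against a single high library. With no filter on low values the NF-kB medians were -0.62 and -0.74. The interferon-stimulated genes had medians of -0.39 and -1.20, with 1 of 33 at least 2-fold lower without PTK6 and 22 of 41 with it. The filter takes the mean of both libraries compared, so the members differ between the pairs. Members could pass it through a high PSPC1/PTK6 level alone, and such members count towards falls. The summed FPKM of the list was 9571 in PSPC1/PTK6 and 3680 in PSPC1. With no filter on low values the medians were -0.31 and -1.15. The cholesterol genes had medians of -0.61 and 0.21, with 21 of 23 lower without PTK6 and 6 of 23 lower with it. The protein genes of the mitochondrial genome had medians of 0.99 and -0.35. The matrix proteases had medians of 0.37 and -0.46, but the second was -0.14 under TMM scaling, -0.09 under median-of-ratios scaling and 0.07 with no filter on low values. MMP9 was at -1.97 with PTK6. The difference between both pairs was not tested, since each library stands alone.

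Differences were spread over the genome. The chromosomes had median log2 differences of -0.06 (chromosomes 6 and X) to 0.11 (chromosome 16), with 0.63 for the 16 mitochondrial genes. Over 11476 overlapping windows of 40 neighbouring genes the medians ran from -0.44 to 0.40, and the windows below are the extremes of these. The highest window lay near the end of chromosome 8 (chr8:143566187-144465677), where 30 of 40 genes were higher and 8 at least 2-fold, among them MROH6, NAPRT, BOP1 and TONSL. The 8 also held weakly read genes. These were MIR661 (0 and 3 reads), an antisense gene that overlaps NAPRT (6 and 52 reads) and another antisense gene (15 and 54 reads). NAPRT makes NAD from nicotinic acid and TONSL repairs stalled replication forks. In the pair with PTK6 the median of these genes was 0.52. Relative to mock, the window's median was -0.15 in PSPC1 and 0.31 in PSPC1-Y523F. The lowest window lay on chromosome 19 (chr19:48485271-49640201), where 11 of 40 genes were higher, with DBP, HSD17B14 and DKKL1 at least 2-fold lower and LHB at least 2-fold higher. Its median with PTK6 was -0.09. Whether these blocks differ in copy number between the transfected cells was not tested.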

How the data were processed

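RNA of SK-Hep1 transfectants was sequenced in 1 library per condition. The authors deposited read counts per gene, not normalized, and FPKM computed from them for SK-Hep1 and Mahlavu, which were used here as deposited. The Huh-7 libraries were not used here. The submitters' processing notes name TopHat2 2.0, HTSeq 0.6.1, edgeR and GRCh38.p12, while the study's methods name another build and quantile-normalized FPKM. The labels describe poly-A selection and a kit that does not mark strand, and the methods describe rRNA depletion, so overlapping antisense genes cannot be told apart. After 8 lines without values were dropped, 58302 genes were left, and 97.6% of those in GENCODE 29 had its positions. Symbols came from a reference table and covered 41836 genes.

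FPKM were quantile normalized over the 8 SK-Hep1 and Mahlavu libraries, 1 was added and log2 differences were taken for genes averaging 1 FPKM or more over both libraries compared. With 1 library per group no test was run. Exact 95% binomial intervals of read ratios cover counting error only, since reads carry no molecular identifiers, and a count of 0 was read as at most 3 reads. The 35 gene lists, the members and the motifs were chosen with earlier results of these data known. Genes named were PSPC1, PTK6, the 12 largest rises and falls with a symbol and at least 50 reads, up to 8 list members past 2-fold or otherwise up to 3 farthest from 0, the 6 largest in each direction over both pairs, and those past 2-fold in a described window. MT-CO2, NONO, SFPQ, NEAT1, TCF3, SREBF2, ENG and EGFL7, the markers at 0 and the promoters shown were named for their role or place after their values were seen. The calculation was tested on simulated data. Alternatives were FPKM as deposited, quantile normalization over SK-Hep1 alone, TMM, median-of-ratios, 0.1 or 5 added, no filter and a mean of 5 FPKM. Leaving out the divided group was added after seeing the data. Tools were Python 3.11.15, numpy 2.4.6, pandas 2.3.3, scipy 1.17.1, matplotlib 3.10.9 and edgeR 4.0.16 in R 4.3.3.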

Additional observations from a re-analysis of the deposited data

Results flagged for a closer look

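The results below were noted because the libraries went opposite ways, each by at least 2-fold, in the pair without PTK6 and in the pair with PTK6. With 1 library per condition the difference between both pairs was not tested. Mutant was set against wild-type PSPC1 each time, and values are log2 differences.

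PSPC1 itself was at -1.23 without PTK6 and at 1.53 with PTK6, so the amount of PSPC1 transcript went opposite ways in both pairs. The genes high in PSPC1 and PSPC1-Y523F/PTK6 alone go opposite ways by the rule that chose them, so their directions are no result. Only their sizes are given. Of these genes, MT-RNR2 was at -5.12 and 3.34, MT-RNR1 at -4.71 and 3.53, and MT-TP at -4.34 and 5.60. MT-CYB was at -3.21 and 4.78, MT-ND5 at -2.71 and 3.997, and MT-ND6 at -2.69 and 3.60. RRP7A was at -3.52 and 4.69, RRP9 at -3.44 and 5.04, RRP12 at -3.29 and 5.11, RRP36 at -2.96 and 4.01, and RRP1B at -2.85 and 3.43. RRP7A has a close pseudogene, so its count is uncertain. METTL25B was at -2.74 and 2.07. The reverse was seen for MT-ND2, at 1.40 and -1.02, for MT-CO1, at 1.39 and -1.34, and for MMP9, at 1.45 and -1.97. MMP9 had 102 and 363 reads without PTK6 and 1612 and 280 with it, in the order of wild type and mutant, and 581 in mock. Among the 28 pairs that can be formed from the 8 SK-Hep1 and Mahlavu libraries, PSPC1 and PSPC1-Y523F/PTK6 shared the 17 genes that were at least 2-fold higher than in all others. The 3 Mahlavu pairs shared 269, 66 and 42 genes, and of the SK-Hep1 pairs PSPC1 and PSPC1/PTK6 shared 23, and mock and PSPC1/PTK6 as well as both PTK6 libraries 12 each.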

How the results depend on the processing

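No paired analysis was possible because each condition had 1 library and the labels give no replicate numbers that pair them, and no replicate could be left out. The number of genes at least 2-fold apart depended on the value added and on the filter, which decide how far weakly expressed genes can move. With 0.1 added, 405 genes were higher and 492 lower without PTK6, 650 were higher with it, 108 were higher and 121 lower in both pairs, 21 were higher without and lower with PTK6, and mock lay nearer PSPC1-Y523F in 199 higher genes. With 5 added, 49 were higher and 85 lower without PTK6, 148 and 191 with it, 6 and 15 in both pairs, 3 and 15 opposite ways, and mock lay nearer PSPC1-Y523F in 18 higher and 58 lower genes. With 5 FPKM as the lowest mean, the counts were 99 and 175 without PTK6, 237 and 274 with it and 21 and 31 in both pairs, 7 were higher without and lower with PTK6, and mock lay nearer PSPC1-Y523F in 51 higher and 116 lower genes. With no filter, 18 were higher without and lower with PTK6. FPKM as deposited gave 206 higher and 1030 lower genes with PTK6, and 25 higher and 105 lower in both pairs. Without the divided group, an alternative chosen after seeing the data, 12 genes were lower without and higher with PTK6, since 16 of the 28 belong to it.

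The other 58 counts stayed within 1.5 times their main value under these alternatives and under TMM, median-of-ratios and quantile normalization of SK-Hep1 alone. No named gene past 2-fold changed direction under any of these alternatives, but of their log2 differences 125 moved by more than their counting error on either side, 52 of them with 5 added, and 912 did not. The log2 fold change of PSPC1 was -0.74 with 5 added and -1.45 with 0.1 added. The FPKM of PSPC1 and PTK6 moved beyond their counting intervals when quantile normalized, to 8.45 and 3.03 for PSPC1 and to 6.98 and 5.39 for PTK6, in the PSPC1 and PSPC1-Y523F libraries. Without PTK6 the list medians changed direction for 4 lists with medians near 0, those of EMT transcription factors, G2 and mitosis, YAP/TAZ targets and histones, and for no other list. With PTK6, 16 of 35 changed direction, among them the matrix proteases (0.07 with no filter) and the ribosomal proteins (-0.12, against 0.35 under TMM). Of the medians without PTK6, 264 stayed within the range their members allow and 4 moved beyond it, those of the ribosomal proteins (-0.37 to -0.34 under 3 scalings) and of the NF-kB driven genes (-0.47 with 5 added). The cause was not tested. Depth limited the weakest genes most, and 80 of the higher and 54 of the lower genes had under 50 reads in both libraries.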
